A study of Mus musculus with 6 samples.

Results

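The 9 genes Vnn1, Plscr2, Cldn11, Naaladl2, Tmem88, Egfl6, Tm4sf5, Tfcp2l1 and Car2 had much lower array signals in mouse embryonic cardiomyocytes that had lost Yap, and none of them belongs to the Hippo pathway. They were chosen by the size of that difference, selected on the log2 intensities of the same 6 arrays, out of 19938 genes with a probe set of their own, 13632 of which were bright enough to be tested. Their differences between the groups are therefore a description, given with no test, and the tests below concern other genes. Each was read by its probe set with a single annotated symbol, or by the one with the highest mean where there were several. All 9 passed the filter on dim genes, which used the mean over all 6 arrays. The Yap KO means of Vnn1, Plscr2, Cldn11 and Egfl6 were under the filter level of 85.7. These genes passed only through their higher values in the control group, so nothing is read from their passing.

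The arrays came from hearts taken at E12.5 from crosses of TNTCre, Yap flox and R26 mTmG mice. TNTCre is a Cre recombinase driven by the promoter of cardiac troponin T, so that Yap is deleted in cardiomyocytes, and the reporter makes a cell green once Cre has acted in it. Both groups carried Cre, floxed Yap and the reporter, and both were sorted for green cells: 3 arrays were from heterozygous embryos (Yap HET) and 3 from knockout embryos (Yap KO). The control group was therefore itself short of 1 copy of Yap in these cells. Hearts were digested singly, and the labels do not say whether RNA of several was joined for an array, nor which embryos shared a litter. The design text of the series calls the arrays of a group biological replicates, and p-values set a difference against the spread between these samples. How much of that spread is technical is not known.

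Yap is a transcriptional coactivator without a DNA-binding domain of its own. It is held in the cytoplasm by the Hippo kinases and, once in the nucleus, acts mainly through TEAD factors, which recognise the bases CATTCC. In the fetal heart it is known for driving cardiomyocyte proliferation. The 9 genes have no pathway in common. They encode enzymes (Vnn1, Car2 and the peptidase relative Naaladl2), membrane proteins (Plscr2, Cldn11, Tmem88 and Tm4sf5), a secreted matrix protein (Egfl6) and a transcription factor (Tfcp2l1).

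RefSeq promoter sequences, on build GRCm38.p6, were matched for 4 of the 9 genes, namely Cldn11, Egfl6, Tm4sf5 and Tfcp2l1. The 250 bases before the start of each were searched on both strands, with matches allowed to overlap. The letters sought were CATTCC for TEAD, TGANTCA for AP-1 and TATAAA for the TATA box. CATTCC occurred in 0 of the 4, against 12.6% of the 32851 windows of this length in the table. TGANTCA also occurred in 0 of the 4, against 6.75% of all windows. TATAAA occurred in 1 of the 4, that of Tfcp2l1, against 12.4%. The window of Cldn11, a gene near background without Yap, and that of Tfcp2l1, the one with a match, are shown 5′ to 3′ with the TATAAA match in capitals. That of Cldn11 lies at chr3:31149670-31149919 and that of Tfcp2l1 at chr1:118627695-118627944, both on the plus strand.
Cldn11: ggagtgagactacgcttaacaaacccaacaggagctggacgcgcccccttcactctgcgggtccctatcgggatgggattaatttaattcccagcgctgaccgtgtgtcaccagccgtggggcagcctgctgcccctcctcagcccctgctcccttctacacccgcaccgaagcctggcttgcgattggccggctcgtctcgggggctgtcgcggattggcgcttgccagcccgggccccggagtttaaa
Tfcp2l1: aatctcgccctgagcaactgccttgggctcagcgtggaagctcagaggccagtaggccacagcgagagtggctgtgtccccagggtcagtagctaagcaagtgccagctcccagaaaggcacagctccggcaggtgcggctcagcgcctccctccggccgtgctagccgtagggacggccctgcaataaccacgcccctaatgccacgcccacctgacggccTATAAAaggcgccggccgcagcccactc
The match in Tfcp2l1 begins 28 bases before the start, and no letters of the Cldn11 window are in capitals because none of the 3 motifs was found in it. These windows were rich in G and C, with 63.6% in Cldn11, 64.8% in Egfl6, 56.4% in Tm4sf5 and 65.2% in Tfcp2l1, against a median of 52.4% over all windows. A TEAD site outside these 250 bases would not be seen by this search.

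The deleted gene was read first. Yap1 had intensities of 886, 927 and 871 in Yap HET and 103, 84.7 and 86.6 in Yap KO. The groups were far apart, at a mean of 895 ± 28.9 (SD, n = 3) against 91.5 ± 10.3 (SD, n = 3). The labels do not tell which exons its probes or the deletion cover. Across the tested genes, 704 rose and 649 fell, which is 9.93% of them (limma adjusted p under 0.05), and the median log2 change was -0.02. In all that follows a log2 change is Yap KO minus Yap HET. The 10 cardiomyocyte markers were all tested and none passed the test (2 were lower at an unadjusted limma p under 0.05), with summed intensities of 60009 to 60565 in Yap HET and 58163 to 60255 in Yap KO.

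The table has no detection calls, so a background level was taken from 1240 probe sets of olfactory, vomeronasal and bitter taste receptors, genes of sensory cells. Whether any of these was expressed in the sorted cells was not tested. The 95th percentile of these lay between 85.5 and 107 on the 6 arrays. A gene whose group mean is at or under this percentile is called near background here, and its fold is then also given as a lower bound, against the percentile in place of the dimmer values. Of the 9 genes, 4 were near background in Yap KO, namely Vnn1, Plscr2, Cldn11 and Egfl6, and 0 in Yap HET. Naaladl2, Tmem88, Tm4sf5, Tfcp2l1 and Car2 were above it on every array. Yap1 itself was near background in Yap KO. In sorted cells of this kind, fewer cells that express a gene and less RNA of it per cell cannot be told apart.

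**Figure D1:**
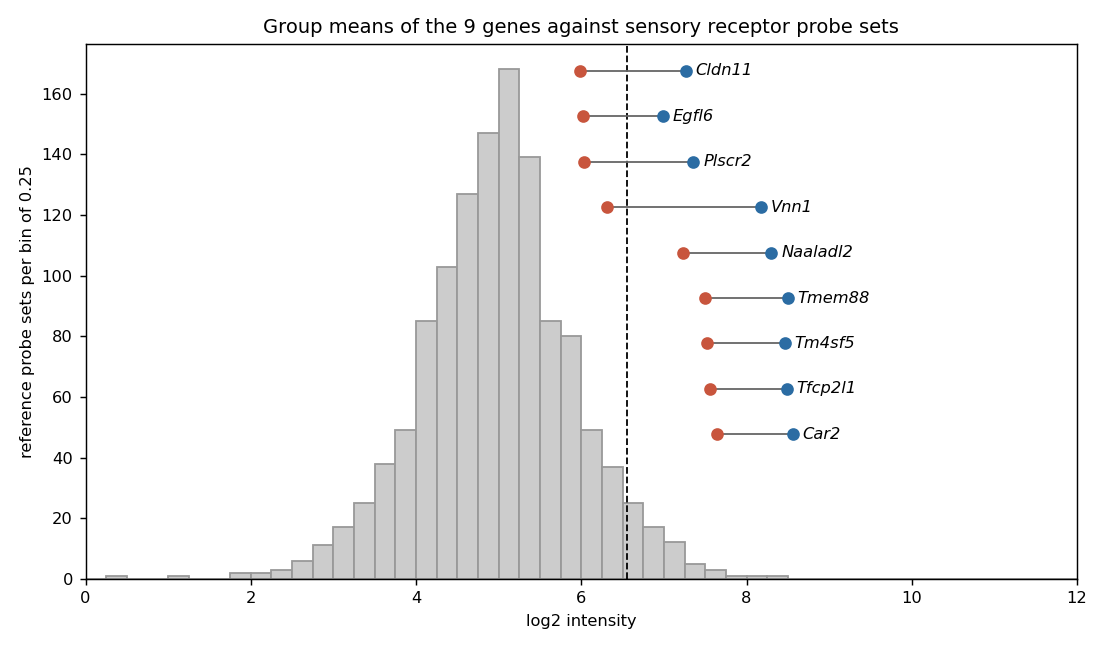
Histogram of the mean log2 intensity of 1240 sensory receptor probe sets on the Yap KO arrays (grey, count per bin on the y axis), with the mean log2 intensity of each of the 9 genes in Yap KO (red) and Yap HET (blue) drawn as joined points at arbitrary heights. The dashed line is the 95th percentile of the receptors on the Yap KO arrays. The red points of Cldn11, Egfl6, Plscr2 and Vnn1 lie left of the line, and those of the other genes lie right of it.

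Vnn1 encodes vanin 1, a pantetheinase anchored to the cell surface that splits pantetheine into pantothenate, the vitamin from which coenzyme A is made, and cysteamine. Its intensities were 286, 319 and 263 in Yap HET and 75.6, 88.2 and 74.3 in Yap KO. The groups did not overlap, and all 3 Yap KO values were under the background percentile. The means were 289 ± 28.4 (SD, n = 3) and 79.4 ± 7.68 (SD, n = 3), a log2 change of -1.87. The Yap KO level was 27.4% of that in Yap HET, and against the background level Vnn1 was at least 3.08-fold lower.

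Car2 encodes carbonic anhydrase 2, a cytosolic enzyme that interconverts carbon dioxide and bicarbonate and is abundant in red blood cells. It read 379, 387 and 365 in Yap HET and 191, 207 and 203 in Yap KO. These were the closest replicates on the log2 scale in the Yap HET group, with an SD of 0.04, and Yap KO had an SD of 0.06. The log2 change was -0.91, or 53.1% of the Yap HET level, with every array above background. The erythroid markers went both ways, with 6 higher in the mean of Yap KO and 3 lower. Hbb-y, an embryonic globin, read 232, 27.1 and 19.8 in Yap HET and 1295, 450 and 86.3 in Yap KO. Epb42, near background in both groups, was lower without overlap, at a mean of 71.8 in Yap HET and 56.2 in Yap KO. Whether red blood cells had a part in the Car2 levels was not tested. The 9 erythroid markers on the array summed to between 604 and 1004 in Yap HET and between 728 and 2893 in Yap KO. Of these, 6 were tested and 0 passed (limma; 1 at an unadjusted p under 0.05), 5 were near background in both groups, and none was listed at 0.

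Naaladl2 encodes a membrane protein related to the glutamate carboxypeptidases, which are zinc peptidases. Its probe set with the highest mean, which the choice of genes used, read 287, 333 and 326 in Yap HET and 164, 148 and 138 in Yap KO. The groups did not overlap, and the log2 change was -1.07, at 47.7% of the Yap HET level. The array has 4 probe sets for this gene, and they did not read alike. The second read 206, 244 and 231 in Yap HET and 106, 128 and 96.1 in Yap KO, a log2 change of -1.05. The third read 48.2, 61.0 and 51.0 against 54.8, 50.8 and 52.2, a log2 change of -0.01. The fourth read between 2.47 and 6.74 on all arrays, with a log2 change of 0.84. The brighter probe sets thus differed between the groups by nearly the same amount, and the others lay under the background percentile on every array. Averaging all 4 on the log2 scale gives a change of -0.32 in place of -1.07.

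Plscr2 encodes a phospholipid scramblase, one of a family of membrane-anchored proteins named for moving lipids between the leaflets of the plasma membrane. Its values were 159, 172 and 160 in Yap HET and 64.9, 58.5 and 74.4 in Yap KO. The 3 Yap HET values lay close together, and every Yap KO value was under the background percentile. Means of 164 ± 6.80 (SD, n = 3) and 65.9 in Yap KO, where the SD was 0.17 on the log2 scale (n = 3), gave a log2 change of -1.32. Plscr2 was at least 1.75-fold lower once the background level stood in for the dimmer values.

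Cldn11 encodes claudin 11, a tight junction protein best known from myelin and from the Sertoli cells of the testis. It read 169, 133 and 162 in Yap HET and 69.0, 61.2 and 59.6 in Yap KO. Here Yap HET replicate 2 was the lowest of its group, whereas it was the highest in 7 of the 9 genes. The log2 change was -1.28 and Cldn11 was at least 1.64-fold lower, since all 3 Yap KO values were under the background percentile.

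Tmem88 encodes a membrane protein that binds Dishevelled and restrains Wnt signalling, and it is known for a part in the specification of heart muscle. It had 334, 388 and 365 in Yap HET and 225, 179 and 148 in Yap KO. The spread within Yap KO was wide, with an SD of 0.30 on the log2 scale against 0.11 in Yap HET, and the groups still did not overlap. The log2 change was -0.997, at 50.1% of the Yap HET level, and ran from -1.15 without Yap KO replicate 1 to -0.85 without Yap KO replicate 3.

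Tm4sf5 encodes a membrane protein of the L6 family, which spans the membrane 4 times and resembles the tetraspanins. Its intensities were 313, 402 and 348 in Yap HET and 183, 150 and 227 in Yap KO. Yap HET replicate 2 was the highest array and Yap KO replicate 2 the lowest. The means were 354 ± 44.9 (SD, n = 3) and 186 ± 38.5 (SD, n = 3), a log2 change of -0.94 that ran from -1.09 without Yap KO replicate 3 to -0.79 without Yap KO replicate 2.

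Egfl6 encodes a secreted protein with EGF-like repeats that lies in basement membranes and binds integrins. It read 108, 153 and 124 in Yap HET and 65.8, 52.4 and 80.4 in Yap KO. Yap HET replicate 1 exceeded the background percentile of its array, 100.1, by little, and the Yap KO values were all under theirs. The log2 change was -0.96 and Egfl6 was at least 1.36-fold lower, the smallest bound of the 4. It ran from -1.11 without Yap KO replicate 3 to -0.81 without Yap KO replicate 2.

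Tfcp2l1 encodes a transcription factor of the CP2 family, known from naive pluripotent stem cells and from the collecting ducts of the kidney. It had 380, 357 and 341 in Yap HET and 196, 186 and 185 in Yap KO. Its replicates lay close together in both groups, with SDs of 0.08 and 0.05 on the log2 scale. The log2 change was -0.93, at 52.7% of the Yap HET level.

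**Figure D2:**
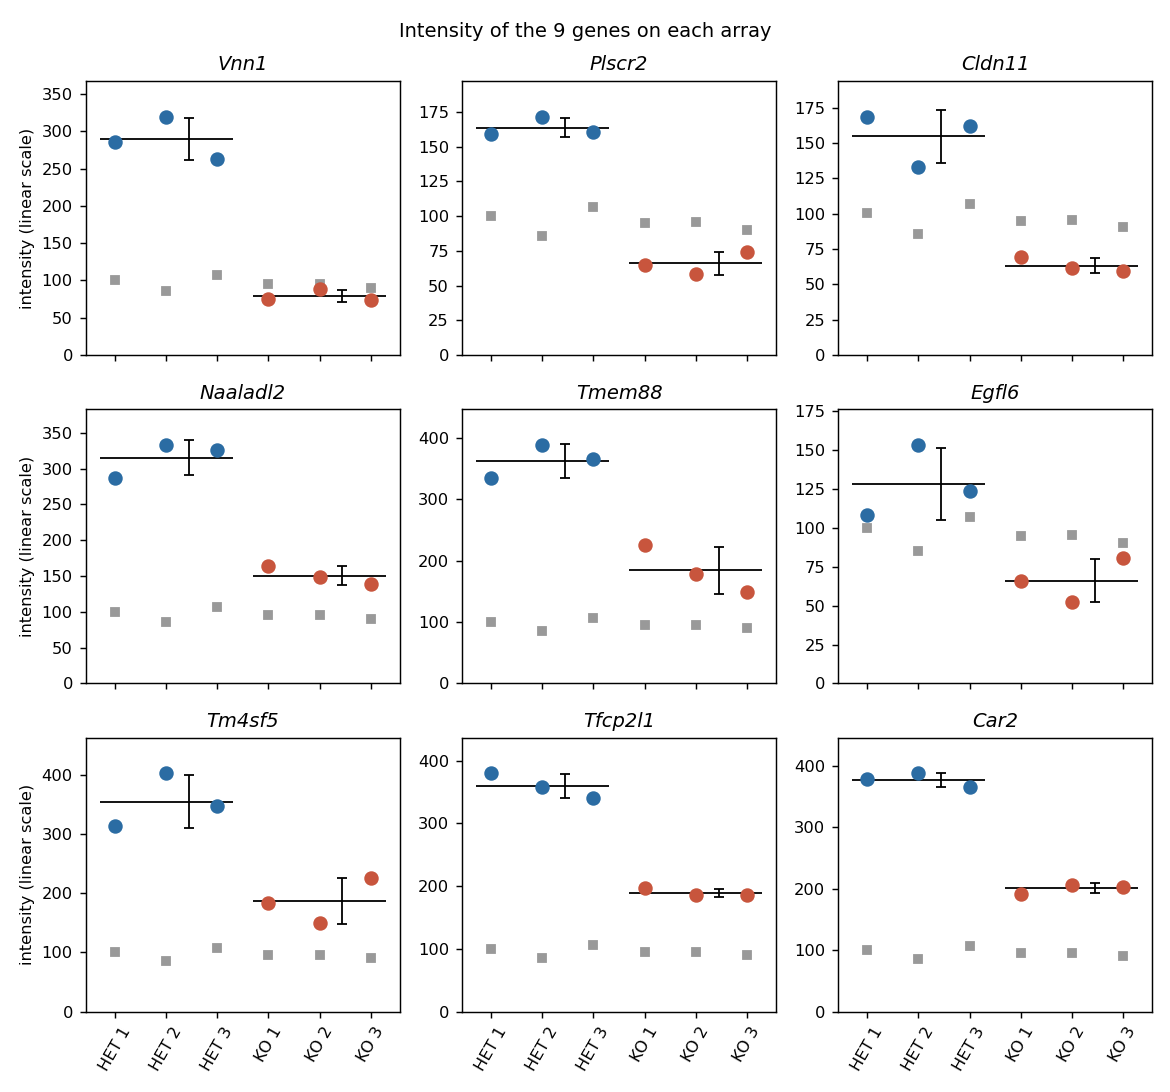
Intensity (linear scale, y axis from 0) of the 9 genes on each array, Yap HET in blue and Yap KO in red. Lines are group means, bars the SD of 3 arrays, and grey squares the 95th percentile of the sensory receptor probe sets on that array. No red point reaches a blue point in any panel, and in Vnn1, Plscr2, Cldn11 and Egfl6 all red points lie under the grey squares.

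Across the 9 genes the groups did not overlap for any of them, and 17.2% of all tested genes were likewise lower in Yap KO without overlap and 16.7% higher. Nothing is read from this because the choice used these values. The median log2 change of the 9 was -0.997, or -0.93 with the 4 near background at their bounds. Among all genes tested with a fall past the threshold and no overlap, Yap1 and Ogn ranked above them. Ogn, at -2.08, is not one of the 9 although it fell more than each of them. Car2 was the last member at -0.91, and the next genes were Sox3 at -0.89 and Crhr2 at -0.89. The step from Car2 to Sox3 was smaller than the SD of Car2 in either group. Within the groups, Yap HET replicate 2 was the highest of its group for 7 of the 9 genes, as for 49.0% of all tested genes. Yap KO replicate 3 was the lowest of its group for 5 of the 9, as for 39.7% of all tested genes.

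The pattern of the 9 over the 6 arrays was summarised as their mean log2 intensity after centring each gene. The genes most like it, by the root mean square difference of the centred log2 values over the 6 arrays, were Crhr2, a receptor of corticotropin-releasing hormone family peptides (0.13), and Aif1l, an actin-binding protein gene (0.14). Amotl2, an angiomotin family gene (0.15), Sox3, a transcription factor gene (0.16), and Tinagl1, a matrix protein gene (0.17), came next. The members themselves had a median difference of 0.17 from their own mean. The 5 genes were picked as the closest of all other tested genes, and the mean is mostly the difference between the groups. Nothing is therefore read from how close they lay.

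The relatives and partners of each of the 9 genes were then read from the fit over all genes. The 10 lists held 155 genes, of which 149 were on the array and 109 were bright enough to be tested. Of these 109, 10 rose and 5 fell, or 13.8%, against 9.93% of all genes tested, and their median log2 change was -0.02, as over all genes. Leaving out Yap HET replicate 1 reduced the 15 calls to 6, and leaving out Yap KO replicate 3 reduced them to 8. Taking the replicate number as a block reduced them to 9. Without Yap KO replicate 2, the calls of Ctnnbip1, Dact3, Ermp1, Frem1, Jam2, Nanog, Qpct and Slc25a42 ended. With no filter on dim genes, which adds genes to the adjustment, 6 calls held, those of Edil3, Ermp1, Itga9, Itgav, Nkd2 and Tcf7l1. Among the 109, Frem1 had the lowest log2 change, -0.61.

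**Figure D3:**
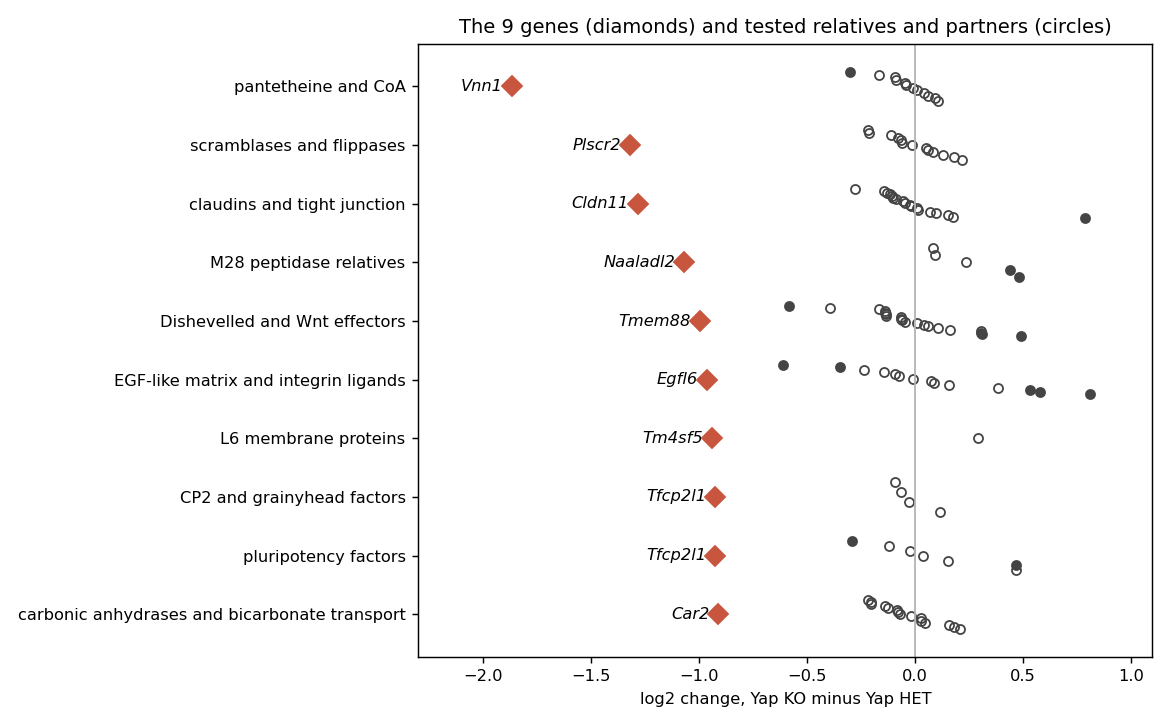
Log2 change (x axis) of each of the 9 genes (red diamonds) and of the tested genes listed as its relatives and partners (circles, filled where the limma adjusted p was under 0.05), 1 row per list. The diamonds, which were chosen for their fall, lie between -1.87 and -0.91, and the circles lie between -0.61 and 0.81.

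In the pantetheine and coenzyme A list, 1 of 12 tested genes fell and 0 rose. Slc25a42, a mitochondrial carrier of coenzyme A, fell from 464 ± 1.36 (SD, n = 3) to 377 ± 33.4, a log2 change of -0.30 ± 0.07 (SE; limma adjusted p = 0.035). Its call ended without any array except Yap KO replicate 1, with limma adjusted p between 0.0565 and 0.114. The pantothenate kinase gene Pank4 stood at -0.17 ± 0.06 (limma adjusted p = 0.126). Vnn3, the other vanin and the neighbour of Vnn1 in the genome, was dim, at 42.2, 44.6 and 43.6 in Yap HET and 34.4, 36.7 and 38.3 in Yap KO, and was not tested.

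None of 13 scramblase and flippase genes passed the test (limma; at an unadjusted p under 0.05, 3 were higher and 0 lower). The smallest limma adjusted p, 0.119, was that of the flippase gene Atp8a1, with a log2 change of 0.18 ± 0.06 (SE). Plscr1, a scramblase gene next to Plscr2 in the genome, had 1063, 1026 and 874 in Yap HET and 923, 918 and 982 in Yap KO. Its groups overlapped, with a log2 change of -0.07 ± 0.08 (limma adjusted p = 0.63). Plscr3 stood at -0.01 ± 0.06 (limma adjusted p = 0.92). The genes of this family are alike in sequence, and whether the probes of Plscr2 and Plscr1 read each other's RNA was not tested.

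Among 18 tested claudin and tight junction genes, 1 rose and 0 fell. The junctional adhesion molecule gene Jam2 rose from 165 ± 38.0 (SD, n = 3) to 281 ± 18.3, a log2 change of 0.79 ± 0.16 (limma adjusted p = 0.023). This call ended without Yap KO replicate 1 (limma adjusted p = 0.059), 2 (0.090) or 3 (0.0535). Of the 32 listed genes on the array 14 were too dim to test, the junction gene Ocln among them at 54.3 to 65.0 on all 6 arrays. Cgn, which encodes the junction plaque protein cingulin, stood at -0.28 ± 0.09 (limma adjusted p = 0.102).

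The peptidase relatives of Naaladl2 held 2 rises and 0 falls among 5 tested genes. Ermp1, a peptidase of the endoplasmic reticulum, rose by 0.44 ± 0.08 (limma adjusted p = 0.014), and Qpct, a glutaminyl cyclase, by 0.48 ± 0.11 (limma adjusted p = 0.031). The call of Ermp1 ended without array 1 of Yap HET (0.057) or array 2 of Yap KO (0.066). That of Qpct ended without array 1 or 3 of Yap HET or array 2 or 3 of Yap KO, with limma adjusted p between 0.078 and 0.106, and with the replicate block. The closest namesakes Folh1, Naalad2 and Naaladl1 were near background in both groups.

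Genes that work with Dishevelled, the partner of Tmem88, and downstream of Wnt moved both ways, with 3 rises and 1 fall among 20 tested. Nkd2, a Dishevelled-binding inhibitor of Wnt signalling, fell from 260, 223 and 238 in Yap HET to 160, 167 and 153 in Yap KO, a log2 change of -0.58 ± 0.07 (limma adjusted p = 0.0038). Tcf7l1, a TCF transcription factor that mostly represses, rose by 0.49 ± 0.07 (limma adjusted p = 0.0070). Ctnnbip1, an inhibitor of beta-catenin, rose by 0.31 ± 0.06 (limma adjusted p = 0.019), and Dact3, a Dishevelled antagonist, by 0.31 ± 0.08 (limma adjusted p = 0.047). The calls of Nkd2 and Tcf7l1 held whichever array was left out. That of Ctnnbip1 ended without array 1 or 3 of Yap HET or array 2 or 3 of Yap KO (0.0546 to 0.088), that of Dact3 without any array except Yap HET replicate 2 (0.060 to 0.160), and both with the replicate block. The 3 Dishevelled genes did not pass, with log2 changes of -0.13 for Dvl1, -0.14 for Dvl2 and -0.07 for Dvl3 (limma adjusted p between 0.152 and 0.46). Tmem88b, the paralog of Tmem88, varied from 112 to 275 in Yap HET and from 95.3 to 151 in Yap KO (limma adjusted p = 0.45).

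The list of EGF-like matrix proteins and their integrins had 3 rises and 2 falls among 14 tested genes. The matrix gene Frem1 fell by 0.61 on the log2 scale, from 254 ± 37.5 (SD, n = 3) to 166 ± 17.0 (limma adjusted p = 0.018). Npnt, which encodes nephronectin, the protein most like Egfl6 and also an integrin ligand, read 1245, 1182 and 1187 in Yap HET and 873, 1001 and 975 in Yap KO, a log2 change of -0.35 ± 0.06 (limma adjusted p = 0.019). Edil3, another secreted integrin ligand, rose by 0.81 ± 0.10 (limma adjusted p = 0.0038). The integrin genes Itga9 and Itgav rose by 0.58 ± 0.06 (limma adjusted p = 0.0029) and 0.53 ± 0.05 (limma adjusted p = 0.0024). Edil3, Itga9 and Itgav kept their calls whichever array was left out. Frem1 lost its call without array 1 of Yap HET (0.0506) or array 2 of Yap KO (0.075), and Npnt without Yap HET replicate 1 (0.078) and with the replicate block. Itga8, an integrin that binds both nephronectin and Egfl6, stood at 0.39 ± 0.14 (limma adjusted p = 0.123).

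For Tm4sf5 and Tfcp2l1, no close relative passed the test. Of the 4 other L6 family genes only Tm4sf1 was bright enough to test, with a log2 change of 0.29 ± 0.10 (limma adjusted p = 0.100). None of 4 tested CP2 and grainyhead factors passed (limma; 0 at an unadjusted p under 0.05), and Tfcp2, the namesake of Tfcp2l1, stood at -0.09 ± 0.08 (limma adjusted p = 0.48). Among 7 tested factors that work with Tfcp2l1 in pluripotent cells, 1 rose and 1 fell. Tbx3, which also marks the atrioventricular canal of the heart, rose by 0.47 ± 0.09 (limma adjusted p = 0.018), and lost its call without array 1 of Yap HET (0.073) or array 3 of Yap KO (0.053). Nanog fell by 0.29 on the log2 scale (limma adjusted p = 0.036) from a dim level, 124 to 146 in Yap HET against 108 to 113 in Yap KO, and lost it without any array except Yap HET replicate 2 (0.075 to 0.125) and with the replicate block.

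No other carbonic anhydrase or bicarbonate transport gene passed the test, of 15 tested (limma; at an unadjusted p under 0.05, 1 was higher and 2 lower). Car13, a cytosolic relative of Car2, read 242, 234 and 238 in Yap HET and 238, 247 and 242 in Yap KO. Its groups overlapped, with a log2 change of 0.03 ± 0.05 (limma adjusted p = 0.75). Car3, next to Car2 in the genome, varied from 201 to 328 in Yap HET and from 216 to 343 in Yap KO (0.21 ± 0.22, limma adjusted p = 0.57). The proton-linked lactate carrier gene Slc16a1 stood at -0.20 ± 0.06 (limma adjusted p = 0.066) and the secreted carbonic anhydrase gene Car6 at -0.22 ± 0.09 (limma adjusted p = 0.15).

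The genes beside the 9 in the genome were read in the same way, using the order of protein-coding genes in the RefSeq annotation of GRCm38.p6. The 9 genes lie on 6 chromosomes, with Cldn11, Naaladl2 and Car2 on chromosome 3, Tmem88 and Tm4sf5 on chromosome 11, Tfcp2l1 on chromosome 1, Plscr2 on chromosome 9, Vnn1 on chromosome 10 and Egfl6 on the X chromosome. All 18 direct neighbours were on the array and 10 were tested. Of these, 2 rose and the others did not pass the test (limma; over all tested genes 5.16% rose and 4.76% fell). Skil, beside Cldn11 and a repressor of TGF-beta signalling, rose by 0.29 ± 0.05 (limma adjusted p = 0.018). Tbl1xr1, beside Naaladl2 and part of a corepressor complex, rose by 0.26 ± 0.05 (limma adjusted p = 0.024). The call of Skil ended without array 1 of Yap HET or array 2 or 3 of Yap KO (0.055 to 0.074) and that of Tbl1xr1 without any array except Yap HET replicate 2 (0.058 to 0.092), and both ended with the replicate block and with no filter on dim genes (0.057 for Skil and 0.071 for Tbl1xr1). The tested neighbours had log2 changes between -0.07 and 0.29.

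Markers of cells other than cardiomyocytes were set beside the 9 genes, since a sort can carry them along. All 9 epicardial markers were above background in both group means, with summed intensities of 3789, 4528 and 3812 in Yap HET and 3524, 2738 and 3907 in Yap KO. On Yap KO replicate 2, Bnc1 read 80.9, under the background percentile of that array, 95.7. Of the 9 markers, Tcf21 rose and 0 fell (limma; 5 were lower at an unadjusted p under 0.05), and none was listed at 0. Tcf21, which also marks cells derived from the epicardium, rose by 0.93 ± 0.17 (limma adjusted p = 0.015, and 0.061 and 0.0545 without Yap HET replicate 1 and Yap KO replicate 3). The epicardial uroplakin gene Upk3b read 1192, 1402 and 1209 in Yap HET and 811, 577 and 1040 in Yap KO. Its difference of -0.68 ± 0.19 missed the threshold (limma adjusted p = 0.061).

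The order of the arrays within both groups was the same for Upk3b as for Egfl6, Tm4sf5 and Plscr2, which was seen in 1.44% of all tested genes. In each of these 4 genes Yap HET replicate 2 was the highest array and Yap KO replicate 2 the lowest. All Yap KO values of Egfl6 and Plscr2 were under the background percentile, so their order there is one of background readings. Yap HET replicates 1 and 3 were also close, at 159 and 160 for Plscr2 and 1192 and 1209 for Upk3b. Whether the shared order has a common source was not tested. Only 3 of the 9 epicardial markers had this order, Upk3b itself, Wt1 and Tbx18, and the other 6 members did not have it. The 3 markers differed in their own log2 changes, at -0.68 for Upk3b, 0.04 for Wt1 and -0.37 for Tbx18. Of the 9 markers, Upk3b had the lowest log2 change.

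The 9 genes were also read relative to these markers, by subtracting a marker's log2 intensity on the same array, a comparison added after the values were seen. Less the mean of all 9 markers, which itself had a log2 change of -0.18, the median of the 9 genes was -0.82 and the groups did not overlap for any of them. Less a single marker, the median lay between -1.92 (Tcf21) and -0.31 (Upk3b), and all 9 genes were lower in Yap KO whichever marker was used. That direction was fixed in advance, because each of the 9 was chosen for a fall larger than that of any of these markers. Nothing is read from it. Less Upk3b, the log2 change was -1.18 for Vnn1, -0.63 for Plscr2 and -0.25 for Tm4sf5 with no overlap between the groups. For the other 6 genes it lay between -0.60 and -0.23, with overlapping groups in each. The share of all tested genes without overlap on these scales was not counted.

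**Figure D4:**
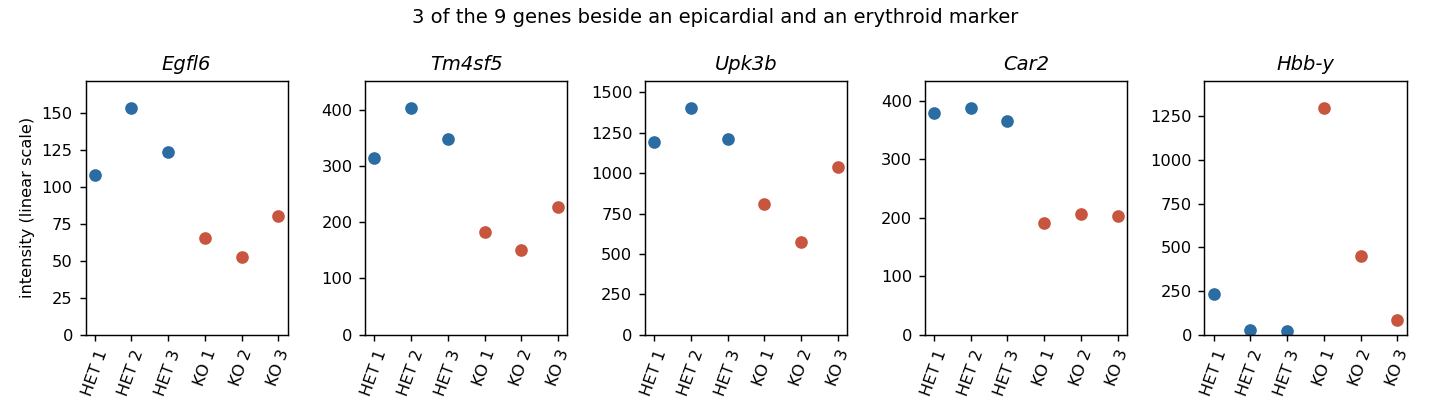
Intensity (linear scale, y axis from 0) of Egfl6, Tm4sf5, the epicardial marker Upk3b, Car2 and the embryonic globin Hbb-y on each array, Yap HET in blue and Yap KO in red. Egfl6, Tm4sf5 and Upk3b share the order of the arrays in both groups, whereas Hbb-y was highest on Yap KO replicate 1 and Car2 was lower on all Yap KO arrays.

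Of the other marker lists, epithelial markers had 0 calls among 6 tested (limma; 1 lower at an unadjusted p under 0.05), with sums of 1608 to 1737 in Yap HET and 1495 to 1653 in Yap KO, and 3 of 8 near background in both groups, Epcam and Cdh1 among them. Neural crest and glial markers had 0 calls among 2 tested (limma; 1 higher at an unadjusted p under 0.05), with sums of 479 to 520 and 525 to 544. Macrophage markers had 1 rise, of Lyz2, among 5 tested, with sums of 1807 to 2099 and 1855 to 2059. The call of Lyz2 ended without any array except Yap HET replicate 2, and 7 of the 8 macrophage markers were lower in Yap KO, 3 of them at an unadjusted limma p under 0.05. Endothelial and endocardial markers had 2 rises (Kdr and Nfatc1) and 1 fall (Npr3) among 9 tested, with sums of 1606 to 1738 and 1863 to 1950. The call of Kdr held whichever array was left out, that of Npr3 ended without Yap HET replicate 1 (limma adjusted p = 0.056), and that of Nfatc1 without any array except Yap KO replicate 1 and with the replicate block. Mesenchymal markers had 3 rises (Pdgfra, Pdgfrb and Postn) and 0 falls among 9 tested, with sums of 5038 to 5274 and 6069 to 8069, and the call of Postn ended without Yap KO replicate 2 (limma adjusted p = 0.061). Within the heart muscle itself, trabecular markers had 4 rises, Irx3, Sema3a and Nppb the clearest by limma adjusted p, among 6 (16901 to 17537 against 19686 to 21186) and markers of the atrioventricular canal and outflow tract 4, led by Bmp2, Rspo3 and Tbx3, among 8 (6502 to 6921 against 7757 to 8552). Ventricular markers had 1 rise (Mpped2) and 1 fall (Hey2) among 5 (20965 to 21785 against 21029 to 21746), and atrial markers 1 fall (Nr2f1) among 6 (16657 to 16815 against 16467 to 17038). Without Yap KO replicate 2, the trabecular markers Sema3a (limma adjusted p = 0.089), Nppb (0.091) and Nppa (0.175) lost their calls, leaving Irx3. Nppb also lost its call without array 1 or 3 of Yap HET or array 1 of Yap KO (0.053 to 0.073). Sema3a also lost its call without Yap KO replicate 3 (0.055), and Nppa whichever array was left out. Among the canal and outflow markers the call of Bmp2 held whichever array was left out, that of Rspo3 ended without Yap KO replicate 2 (0.059), that of Tbx2 without array 1 or 3 of Yap HET or array 1 or 2 of Yap KO (0.085 to 0.130), and that of Tbx3 ended as given above. Hey2 and Mpped2 both lost their calls without Yap HET replicate 1 (0.080 and 0.075) or 3 (0.052 and 0.0535). Mpped2 also lost its call without Yap KO replicate 1 (0.0526) or 2 (0.0845). Nr2f1 lost its call whichever array was left out (0.066 to 0.131), as well as with quantile normalization, cyclic loess and the replicate block. With no filter on dim genes, the marker calls that held were those of Irx3, Bmp2, Rspo3, Tcf21, Kdr, Npr3, Pdgfra, Pdgfrb and Postn. The part of these cell types in the levels of the 9 genes was not tested.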

How the data were processed

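RNA of sorted cells was measured on 6 Affymetrix arrays, from 0.1 µg of total RNA per array per the labels' protocols. The authors made the deposited intensity values, 1 per probe set and linear, with RMA per the submitters' processing notes, which name no version. RMA writes log2 values, and the labels do not tell how these became linear. Values under 1 were set to 1 (587 probe sets), and log2 was taken. Probe sets with 1 symbol (21789 of 35556) were named from the platform annotation, with symbols updated through a RefSeq table of GRCm38.p6 (21698 matched), and 1621 had several symbols and 12146 none. For each gene the probe set with the highest mean was used, and a gene was tested if its mean log2 reached that of the 40th percentile of probe sets (an intensity of 85.7). Array medians lay between 128 and 140, and log2 values over the tested genes correlated at 0.992 to 0.996 within a group and 0.984 to 0.991 across groups. The number of arrays limits the precision.

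Genes were tested with limma 3.58.1 (lmFit, eBayes) in R 4.3.3, with the group as the only term and Benjamini-Hochberg adjustment over 13632 genes at a threshold of 0.05. The fit was tested on data simulated with the means and spreads of these genes. Of 50 genes at each size, it recovered 16% of log2 changes of 0.25, 68% of 0.5, 94% of 1 and 100% of 2. A gene that did not pass may thus still differ by a small amount. P-values set the difference between the groups against the spread between arrays of a group, which eBayes moderates over all tested genes.

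The members, the gene lists, the markers and the motifs were chosen with earlier results of these data known. Named are the 9 genes and Yap1, the genes next to them in the order of falls, relatives past the threshold or else those of smallest p, genome neighbours, the 5 genes most alike, and up to 3 called markers per list. Relatives that were dim, or below the threshold and beside a member in name, were chosen after their values were seen. Protein sequences were not used here. Tried as alternatives were all genes unfiltered, a 60th percentile filter, averaging the probe sets of a gene, quantile normalization, cyclic loess, an offset of 32 before log2, a trended and robust prior, the replicate number as a block, each array left out, and background at the 90th or 99th percentile or the filter level.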

Additional observations from a re-analysis of the deposited data

How the results depend on the processing

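The 9 members kept the direction of their difference under every alternative run for them, and under the planned ones 83 of 90 values moved by less than the spread between replicates. The others were those of Vnn1 (-1.53), Plscr2 (-1.002), Cldn11 (-0.97), Naaladl2 (-0.93), Tfcp2l1 (-0.82) and Car2 (-0.82) with an offset of 32, which shrinks dim values, and Naaladl2 with the mean of its probe sets (-0.32). In comparisons added after the values were seen, the median of the 9, -0.997, was -0.82 less the mean of the 9 epicardial markers on each array and -0.31 less Upk3b, the marker with the lowest log2 change of those 9. The number of members near background in Yap KO was between 3 and 5.

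The 1353 genes called became 508 with no filter, 2246 with a trended and robust prior and 698 with the replicate block, and lay between 433 and 1375 with each array left out. The 15 called relatives became 6, 23 and 9, and between 6 and 15. With no filter 19938 genes were tested; for the others the cause was not tested. Over 206 values of these 15, none reversed and 49 lost their call. The replicate block removed the calls of Ctnnbip1, Dact3, Nanog, Npnt, Qpct and Slc25a42 among the relatives, and no other call among them. Deviations from the group means correlated at -0.08, -0.17 and 0.12 between arrays of the same number, and not every array correlated best with its own number, so the numbers are not taken to pair the arrays.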
